A study of Mus musculus with 2 samples.

Results

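Interferon-response B cells of the heart were B cells that carried transcripts of several genes that are switched on by interferon. They were chosen by their own expression values. A droplet was counted as a Cd79a cell when it held at least 2000 transcript molecules of genes, counted by their molecular tags (UMIs), at most 10% of them mitochondrial, and at least 1 UMI of Cd79a, which encodes a chain of the B cell receptor. A Cd79a cell was called an interferon-response cell, or member, when it held a UMI of at least 3 of the 8 genes Ifit1, Ifit3, Ifit3b, Isg15, Rsad2, Usp18, Mx1 and Cxcl10, named here the gate genes. By this rule, 268 of 5688 Cd79a cells were members, 252 of 3611 adult and 16 of 2077 neonatal cells.

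The study sequenced myocardial-associated B cells of C57BL6/J mice without treatment, as 1 droplet library at 2 weeks of age (neonatal, 15 days in the sample title, males and females pooled) and 1 at 8 weeks (adult, males). Each library was made from 6 pooled hearts, and the cells were sorted as live B cells, both ages on the same day. The libraries held 26866958 neonatal and 49500780 adult gene UMIs. With 1 library per age there was no replicate and no test. Age, sex composition and library cannot be told apart, and every interval given is an exact 95% interval that covers counting error only.

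Type I interferons bind a receptor of the chains Ifnar1 and Ifnar2, whose kinases Jak1 and Tyk2 act on transcription factors such as Stat2. With Irf9 as a subunit these form the complex ISGF3, which binds the interferon-stimulated response element (ISRE) in the promoters of interferon-stimulated genes. Their products detect viral nucleic acids, block viral replication, and in part, as Socs1 and Usp18, dampen the same signal.

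The 8 gate genes lie at 6 sites of the genome (mm10). Ifit3 (chr19:34583531-34588731), Ifit3b (chr19:34607970-34613401) and Ifit1 (chr19:34640871-34650009) lie in 1 cluster, all on the plus strand with Ifit1bl1 on the minus strand between the first pair, and encode proteins that bind foreign RNA ends. Isg15 (chr4:156199424-156200818, minus strand) encodes a ubiquitin-like protein that is attached to other proteins, and Usp18 (chr6:121245906-121270917, plus strand) the protease that removes it. Rsad2 (chr12:26442746-26456452, minus strand) encodes viperin, an enzyme that makes a chain-terminating nucleotide. Mx1 (chr16:97447035-97462907, minus strand) encodes an antiviral GTPase, and Cxcl10 (chr5:92346638-92348889, minus strand) a chemokine that attracts T cells. The longest coding transcripts of Ifit3 and Ifit3b were 98.0% identical over 1697 aligned bases, so reads of these genes may be divided between them uncertainly.

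The promoters of the marker genes Ifit3, Isg15 and Rsad2 are shown because ISRE cores stand in them, and the other marker gene, Usp18, was not in the promoter table. The core was searched as GAAANNGAAA on both strands (TTTCNNTTTC on the other) in the 250 bases before each RefSeq start (GRCm38.p6), and matches are in capitals. Each sequence is written 5′ to 3′ in the direction of its gene.
Ifit3, chr19:34583279-34583528, plus strand: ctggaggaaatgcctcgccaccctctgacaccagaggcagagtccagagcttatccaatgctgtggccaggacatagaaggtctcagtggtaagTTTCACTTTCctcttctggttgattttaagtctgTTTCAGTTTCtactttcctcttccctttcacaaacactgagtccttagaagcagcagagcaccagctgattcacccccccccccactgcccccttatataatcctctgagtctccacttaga
Isg15, chr4:156200819-156201068, minus strand: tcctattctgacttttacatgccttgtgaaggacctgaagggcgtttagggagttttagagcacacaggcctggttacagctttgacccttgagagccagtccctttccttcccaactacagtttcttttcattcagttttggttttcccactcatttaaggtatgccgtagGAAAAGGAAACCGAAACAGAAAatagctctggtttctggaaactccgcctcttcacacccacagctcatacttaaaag
Rsad2, chr12:26456453-26456702, minus strand: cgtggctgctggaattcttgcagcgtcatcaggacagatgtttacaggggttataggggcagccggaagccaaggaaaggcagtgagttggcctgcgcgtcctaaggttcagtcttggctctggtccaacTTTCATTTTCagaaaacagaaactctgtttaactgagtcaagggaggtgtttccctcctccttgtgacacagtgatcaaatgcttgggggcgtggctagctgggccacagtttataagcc

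Ifit3 held 2 cores, which began 156 and 122 bases before the start, Isg15 held 3 that overlap and began between 78 and 66 bases before it, and Rsad2 held 1 at 120 bases. Of the 8 gate genes, 6 were in the promoter table and all 6 held a core, against 936 of the 27025 genes of the table (3.46%).

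Members were more frequent among adult than among neonatal Cd79a cells. They made up 6.98% (6.17 to 7.86) of the adult and 0.770% (0.441 to 1.25) of the neonatal cells. The count depended on depth, since a cell with more UMIs has more chances to show 3 genes. With each cell thinned to 2000 UMIs, 98 of the 3611 adult cells (2.71%, 2.21 to 3.30) and 2 of the 2077 neonatal cells (0.0963%, 0.0117 to 0.347) still passed, and the intervals of the libraries did not overlap by either count. Of droplets of this depth without Cd79a, 0 of 4 adult and 0 of 14 neonatal ones passed, where 3 counts would be 75% and 21.4% and the exact intervals reach 60.2% and 23.2%. The mean near-empty droplet had 92.01 adult or 55.9 neonatal UMIs, and at this level of free RNA 0.001 adult and 7.1e-07 neonatal cells would show 3 gate genes.

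The adult share was 0.549% among cells of 2000 to under 4000 UMIs, where 4 of 728 passed, 2.82% from 4000 to under 8000 (42 of 1489), 9.96% from 8000 to under 16000 (90 of 904) and 23.7% from 16000 (116 of 490). After thinning, the shares in the same bins were 0.412%, 1.88%, 5.09% and 4.29%, so the rise with depth was smaller at equal depth but did not vanish. The neonatal share was 0 of 124 (3 counts would be 2.42%, and the exact interval reaches 2.93%), 0.640% (9 of 1407), 0.485% (2 of 412) and 3.73% (5 of 134) in these bins.

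**Figure D1:**
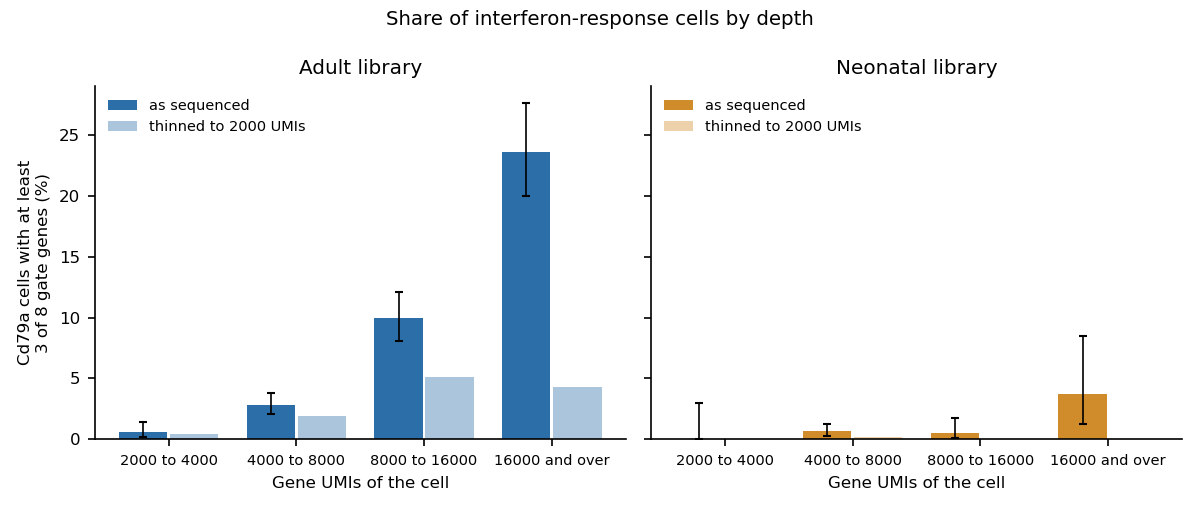
Percentage of Cd79a cells with at least 3 of 8 gate genes (vertical axis) in 4 bins of gene UMIs per cell (horizontal axis), for the adult (left) and neonatal (right) library. Dark bars are the shares as sequenced with exact binomial 95% intervals, and pale bars the shares after thinning each cell to 2000 UMIs. The adult bars rise from 0.549% to 23.7% as sequenced and stay at or below 5.09% when thinned.

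Adult members had a median of 14495.5 UMIs (lowest 2895, highest 139915), against 5662 in the other 3359 adult Cd79a cells. They were therefore compared with 1260 other adult Cd79a cells, the 5 nearest in UMIs for each member, called matched cells, whose median was 12194.5. The deepest members could not be matched fully: 34.5% of members and 18.6% of matched cells held over 20000 UMIs. At 2000 UMIs per cell, members showed a median of 859 genes and matched cells 862, and mitochondrial UMIs were at a median of 6.64% and 6.84%. No doublet caller was run and no doublet was removed beyond the sort.

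The gate genes themselves are described without comparison, since they chose the members. In the 252 adult members, Isg15 was present in 90.9% of cells at 267.6 CPM (counts per 1e6 UMIs, over all genes but Cd79a and the gate), with a median of 3.5 and at most 33 UMIs in a cell. Ifit3 was present in 86.1% at 381.5 CPM (median 4 UMIs, at most 51), Usp18 in 73.8% at 98.6 CPM, Ifit1 in 73.0% at 172.4 CPM, Ifit3b in 67.1% at 118.3 CPM, Rsad2 in 63.1% at 101.6 CPM and Mx1 in 61.5% at 86.0 CPM. Cxcl10 was the exception, with a UMI in 18.7% of members, 47 cells in all. Of these, 38 were the cells with all 8 genes, and 1 cell held 13.1% of its 434 UMIs. In near-empty adult droplets Ifit3 stood at 41.3 CPM and Isg15 at 36.0 CPM.

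All 4 marker genes, Ifit3, Isg15, Rsad2 and Usp18, were thus present in most adult members. In the 16 neonatal members, Ifit3 had a UMI in 12 cells, Rsad2 and Mx1 in 11 each, Ifit1 and Isg15 in 8 each, Usp18 in 6 and Ifit3b in 4, and Cxcl10 in 0, where 3 counts would be 13.4 CPM.

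**Figure D2:**
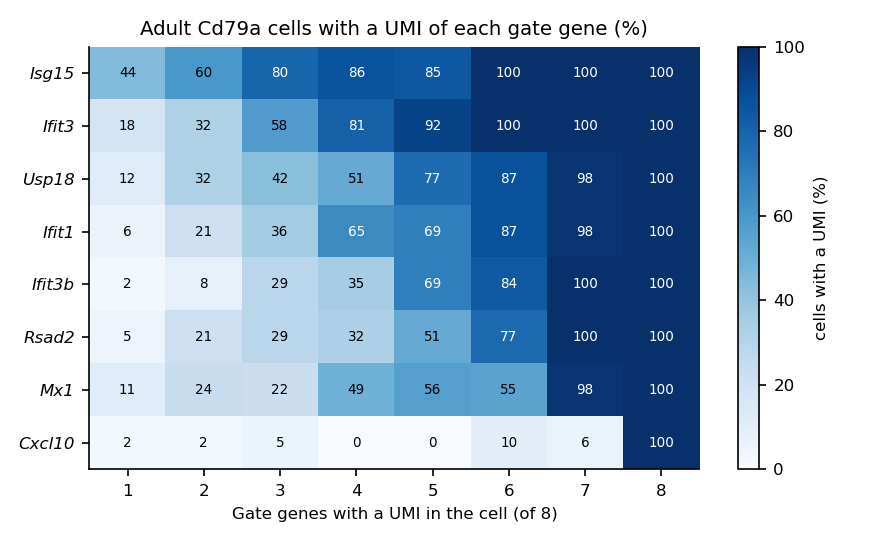
Percentage of adult Cd79a cells with a UMI of each gate gene (rows), by the number of gate genes the cell held (columns, 1 to 8). Isg15 was the most frequent gene in cells with 1 gene (44.2%), and Cxcl10 stayed at or below 9.68% until all 8 were present.

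Transcripts of other interferon-stimulated genes accompanied the gate. The 6 interferon lists, with 121 such genes in the table, none of them a gate gene, summed to 16840 CPM in adult members (16730 to 16960) and 9475 CPM in matched cells (9431 to 9519), a log2 ratio of 0.83 (0.82 to 0.84). Per cell, the lowest member stood at 4810, the median member at 17540 and the highest at 53782 CPM, and the matched cells at 2481, 9214 and 27523 CPM. The groups overlapped: 96 of 1260 matched cells (7.62%) lay at or above the lower quartile of members, and 13 (1.03%) at or above their median. The log2 ratio was 1.46 when the gate was read at 2000 UMIs per cell, and 1.33 without cells over 20000 UMIs.

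The level followed the number of gate genes. Cells just outside the threshold, 127 adult cells with 2 gate genes, had a median of 11290 CPM, and the 59 cells just inside with 3 genes a median of 12210 CPM. The median was 27560 CPM in the 48 cells with 7 genes and 35770 CPM in the 38 cells with all 8. Among cells of 4000 to under 8000 UMIs, summed CPM went from 9288 with no gate gene (1282 cells) through 15560 with 2 (20 cells) and 19170 with 3 (7 cells) to 40840 with 8 (7 cells). At this depth the cells just outside the threshold stood above those without a gate gene.

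**Figure D3:**
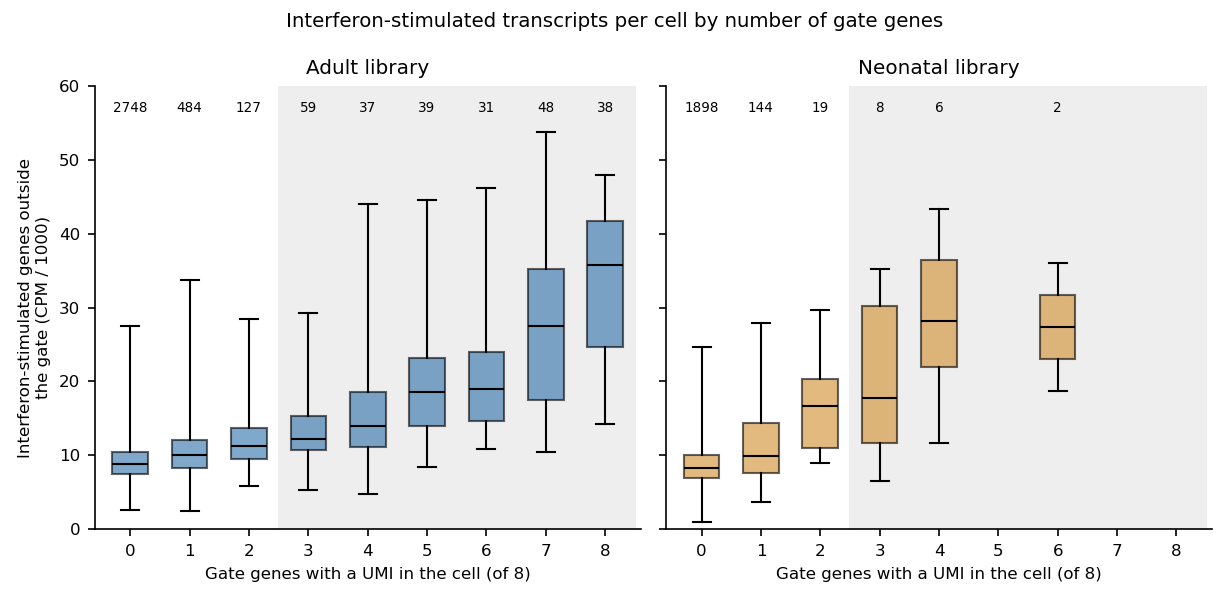
CPM of the 121 interferon-stimulated genes outside the gate per cell, divided by 1000 (vertical axis), by number of gate genes in the cell (horizontal axis), in the adult (left) and neonatal (right) libraries. Boxes are quartiles with the median, whiskers reach the lowest and highest cell, numbers on top are cells, and the grey area holds the members. Adult medians rise from 8785 CPM with 0 gate genes to 35770 CPM with 8.

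Across all genes, 8717 had at least 100 UMIs over adult members and matched cells. Of these, 113 (1.3%) were at least 2-fold higher in members and 11 (0.126%) at least 2-fold lower, and the median gene had a log2 ratio of -0.02. Of the interferon-stimulated genes outside the gate, 107 reached this minimum. Among them 61 were at least 2-fold higher, 0 were at least 2-fold lower, and 99 had a ratio above 0, with a median of 1.30. The minimum was over both groups together, so a gene with few matched UMIs could pass it only by being high in members. The counts of higher genes, here and in the lists below, include such genes. The sum differed less than the median gene, and its most abundant gene, Ly6e, which encodes a surface protein, stood at 1927 CPM in members and 1761 CPM in matched cells (0.13).

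The 10 largest ratios among genes with a UMI in at least 10% of members were led by Ifit2, a neighbour of Ifit3 on chromosome 19 whose protein binds viral RNA. It was found in 69.4% of members, with a median of 1 and at most 24 UMIs, and in 6.27% of matched cells, with a median of 0 and at most 4, at 139.3 and 5.29 CPM (log2 ratio 4.72, 4.42 to 5.03). Slfn5, of the Schlafen family of nucleic acid-binding proteins, had the most UMIs of the 10, a median of 4 in members and of 0 in matched cells, and 338.9 against 26.1 CPM (3.70, 3.55 to 3.84). Both genes separated the groups in most cells, but 23.8% of matched cells also held a Slfn5 UMI.

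The others were Trim30c, of a family of ubiquitin ligases (log2 ratio 4.25), Ifitm3, a membrane protein that blocks viral entry (3.90), Tlr3, the endosomal sensor of double-stranded RNA (3.72), Ifi211, of the interferon-inducible p200 family (3.59), Oasl2 (3.35), Ifit1bl1 (3.27), Cmpk2, a nucleotide kinase and the neighbour of Rsad2 (3.23), and Oas3 (3.23). Trim30c, Ifi211 and Ifit1bl1 belong to families of closely related copies, and their counts are less certain. Trim30c, Tlr3 and Ifi211, with 31, 25 and 35 matched UMIs, reached the minimum only through their high member UMIs.

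Transcription factors of the pathway were higher in members and receptors were not. Of 16 genes of ISGF3 and interferon signalling, 4 were at least 2-fold higher and 0 lower, with a median log2 ratio of 0.10. Irf7, a factor that amplifies type I interferon genes, stood at 111.3 CPM in members and 22.7 in matched cells (2.29, 2.11 to 2.47). Members held a median of 2 and at most 12 Irf7 UMIs, matched cells a median of 0 and at most 6. Stat2 stood at 73.0 and 25.4 CPM (1.52, 1.32 to 1.72). Socs1, an inhibitor of the receptor kinases, stood at 40.9 and 15.6 CPM (1.39, 1.13 to 1.65). The receptor genes Ifnar1 (0.05) and Ifnar2 (-0.03) and the kinase Jak1 (0.03) lay near the median gene. The interferon-gamma receptor gene Ifngr1 stood at -0.153 (-0.313 to 0.004), just below the lower quartile of all genes compared (-0.139).

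Sensors of nucleic acids were divided. Of 11 with enough UMIs, 6 were at least 2-fold higher, with a median of 1.61. These were Tlr3, Ifih1, which encodes the RNA sensor MDA5 (29.7 against 3.44 CPM, 3.11), Zbp1, a sensor of left-handed nucleic acids (191.1 against 38.7 CPM, 2.30), Eif2ak2, the kinase PKR (2.12), Dhx58 (1.98) and Ddx58, which encodes RIG-I (1.61). Tlr3 and Ifih1, with 25 and 65 matched UMIs, reached the minimum only through their high member UMIs. None of the 3 adaptors of the list reached 2-fold, and the interval of each took in 0: Tmem173, which encodes STING, was at -0.07 (-0.31 to 0.16), Mavs at -0.53 (-1.23 to 0.11) on 24 UMIs in members, and Myd88, an adaptor of Toll-like receptors, at 0.30 (-0.06 to 0.65). The DNA sensor Aim2 was at -0.02 and Tlr7, the endosomal sensor of single-stranded RNA, at 0.83.

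In the list of OAS and RNA processing, 6 of 10 genes were at least 2-fold higher, with a median of 2.12. This list holds the OAS system, whose enzymes are activated by double-stranded RNA, and also Isg20, Adar (0.88) and Pnpt1 (0.50). Oasl2 (54.8 against 5.39 CPM), Oas3 (42.6 against 4.55 CPM) and Oas2 (13.3 against 1.85 CPM, 2.85) had the largest ratios. Oas2, with 35 matched UMIs, reached the minimum only through its high member UMIs. Isg20, an exonuclease, stood at 109.5 and 16.5 CPM (2.73). The interferon-inducible GTPases, which attack the vacuoles of intracellular pathogens, had 10 of 12 genes at least 2-fold higher (median 1.76). Among them were Irgm1 (83.9 against 14.8 CPM, 2.51) and Ifi47 (145.9 against 25.9 CPM, 2.50). Gbp6 had the largest ratio (2.69), but Gbp6 and Irgm2 (1.97), with 37 and 67 matched UMIs, reached the minimum only through their high member UMIs. Among 54 antiviral effectors, 33 were at least 2-fold higher (median 1.34). One of them, Slfn1 (3.02), with 57 matched UMIs, also reached the minimum only through its high member UMIs. Of the 4 genes of ISG15 conjugation, 2 were at least 2-fold higher (median 0.96), the ligase Herc6 (117.5 against 20.9 CPM, 2.49) and the conjugating enzyme Ube2l6 (1.06), and the activating enzyme Uba7 stood at 0.87.

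**Figure D4:**
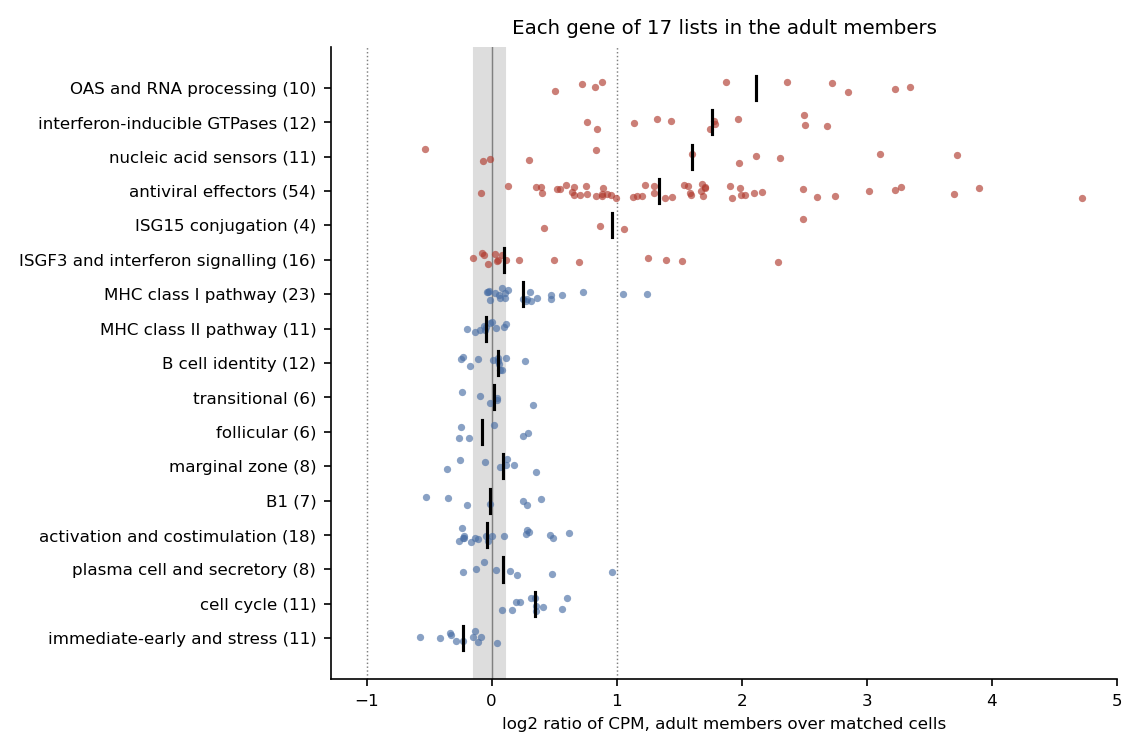
Each point is a gene with at least 100 UMIs, placed by its log2 ratio of CPM in adult members over matched cells (horizontal axis), for 17 of the 25 lists (rows, with the number of genes). Red points are interferon lists and blue points other lists, black bars are list medians, the grey band holds the middle quartiles of all 8717 genes, and dotted lines mark 2-fold. The interferon lists other than signalling have medians from 0.96 to 2.12, and the other lists shown have medians between -0.23 and 0.35. The list of interferons and chemokines and those of other cell types, each with at most 5 genes at 100 UMIs, and genes at 0 UMIs in a group are not drawn.

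Of 23 genes of the MHC class I pathway, which presents peptides to killer T cells, 2 were at least 2-fold higher, against 1.3% of all genes, and 19 had a ratio above 0, with a median of 0.25 (all genes, -0.02). The 2 genes were Nlrc5, the transactivator of class I genes (26.5 against 11.2 CPM, 1.25), and the nonclassical H2-T24 (1.05). H2-T22 stood at 0.73. The peptide transporter gene Tap1 (143.3 against 97.1 CPM, 0.56), its partner Tapbp (0.48) and the immunoproteasome subunit gene Psmb9 (0.47) were also above the median gene, named after their values were seen. The classical H2-K1 (1785 against 1702 CPM, 0.07) and H2-D1 (2108 against 2069 CPM, 0.03) lay near it. H2 genes are closely related, and their counts may be divided between them. None of the 11 MHC class II genes reached 2-fold (median -0.05), and the 3 with the largest ratios were H2-Ob (-0.19), H2-DMb1 (-0.14) and H2-Oa (0.12).

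Members were B cells by their other transcripts. None of 12 B cell identity genes reached 2-fold in either direction, with a median of 0.05 and the largest differences at Blnk (0.27), Blk (-0.24) and Fcmr (-0.23). Ms4a1, which encodes CD20, was found in 100% of members. The lists for transitional (median 0.01), follicular (-0.08), marginal zone (0.09) and B1 cells (-0.02) also held no gene at 2-fold. Their named genes included Plac8 (0.35), Dtx1 (-0.36) and Cd9 (-0.25) of marginal zone cells, Klf2 (-0.26) and Cxcr5, the receptor that guides cells to follicles (0.25) of follicular cells, Spn (-0.53), Itgam (0.39) and Bhlhe41 (-0.35) of B1 cells, and Sox4 (0.33), Spib (-0.23) and Cd93 (-0.09) of transitional cells. At 2000 UMIs per cell, Cr2, which encodes CD21, and Fcer2a, which encodes CD23, were found together in 6.75% of members (3.98 to 10.6) and 9.21% of matched cells (7.67 to 10.9). Cr2 alone was found in 10.7% and 12.4%, Fcer2a alone in 25.8% and 25.9%, and neither in 56.7% (50.4 to 62.9) and 52.5% (49.7 to 55.3). The intervals overlapped for each of these 4 classes.

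Activation genes were mixed. Of 18 genes of activation and costimulation, 0 reached 2-fold (median -0.04). The largest ratios were those of Cd274, which encodes PD-L1 (60.3 against 39.2 CPM, 0.62, 0.43 to 0.81), and Fas (0.49). The interval of Fas took in 0 (-0.02 to 0.98), on 49 UMIs in members. Cd69, an early activation antigen that interferon also raises, came next (372.9 against 269.1 CPM, 0.47, 0.39 to 0.55). Immediate-early and stress genes were lower in sum, at 4579 against 5433 CPM (-0.25, -0.27 to -0.23), and 10 of 11 had a ratio below 0, led by Dnajb1 (-0.57), Egr1 (-0.41) and Jund (-0.34). Egr1 was nevertheless found in more members (26.2%) than matched cells (21.1%). Dnajb1 (34.9% and 39.5%) and Jund (98.0% and 99.8%) were found in fewer members. Genes of the cell cycle summed to 717.7 and 610.5 CPM (0.23), with 11 of 11 above 0 and none at 2-fold, and the largest ratios at Birc5 (0.60), Tyms (0.56) and Mcm5 (0.41). The member with the most UMIs of the gene held 23.1% of those of Birc5 and 35.6% of those of Tyms. In members with 3 or 4, 5 or 6 and 7 or 8 gate genes, each against its own matched cells, the cell cycle genes had summed ratios of -0.08, 0.11 and 0.31, and in the first class 4 of 11 lay above 0. Those of plasma and secretory cells had a median of 0.09. Jchain, at 0.96, had 67.3% of its member UMIs in 1 cell, and without the member with the most UMIs of the list the log2 ratio of the summed list went from 0.21 to -0.09. Prdm1 was at 0.48 and Herpud1 at -0.23.

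Transcripts of the listed type I and type III interferons were not found. Ifna1, Ifna2, Ifna4, Ifna5, Ifnb1, Ifnl2, Ifnl3, Ifne and Ifnk had 0 UMIs in members and in matched cells, and Ifng, which encodes interferon-gamma, had 1 UMI in members and 27 in matched cells. In members 3 counts would be 0.563 CPM. Of the 21 genes of the list of interferons and chemokines in the table, 3 reached 100 UMIs. Ccl5 (29.1 against 3.65 CPM) had 63.9% and Il10 (1.41) 63.4% of their member UMIs in 1 cell each, and Ccl4 stood at -0.20. Tnfsf10, which encodes the death ligand TRAIL, fell short of the minimum with 53 UMIs in members and 37 in matched cells, and was singled out after its values were seen.

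At the other end stood the 11 genes at least 2-fold lower, none of them found in 10% of matched cells. Their number moved with the settings, to 91 with the gate read at 2000 UMIs, 74 without cells over 20000 UMIs, and 213, against 202 higher, with a minimum of 20 UMIs per gene. They were Lyz2, Ighg2c, Igha, Akap5, Slpi, H1f0, Fcer1g, Gng10, Tab1, Ddx31 and Cd68, named after their values were seen where the rule did not name them. A single matched cell held 99.0% of the 3303 matched Ighg2c UMIs, and a single one held 56.0% of the 234 matched Igha UMIs. Igha was found in 8.33% of members and 6.75% of matched cells. Lyz2, a lysozyme of myeloid cells, had 0 UMIs in members and 204 in matched cells, at least 19.2-fold lower against a floor of 3 counts over the members. A single matched cell held 151 of these, and without it the bound was 4.98-fold. Among genes found in at least 10% of matched cells the 10 lowest ratios ran from -0.96 to -0.81, below 2-fold: Vsir, Rgcc, Arf2, AU022252, Ugdh, Fam160b2, Nt5m, Rnf125, Gm26526 and Klhdc2.

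Transcripts of other cells were counted beside these. The 12 genes of macrophages and monocytes summed to 278.5 CPM in members and 346.4 in matched cells, mostly Apoe (218.6 and 270.8 CPM), and Lyz2, Csf1r, C1qa and Cd14 were among those at 0 in members. The 12 genes of T and NK cells summed to 53.7 and 28.4 CPM, and 1 member held 86.1% of the 79 Trbc2 UMIs. Of the 6 genes of plasmacytoid dendritic cells, which are known as strong producers of interferon, Siglech, Klk1 and Smim5 were at 0 in members, and Pacsin1 made up 102 of 106 UMIs. Neutrophil genes had 2 UMIs in members and 10 in matched cells, genes of fibroblasts and cardiomyocytes 15 and 39, and erythroid and platelet genes 18 and 117. Endothelial genes had 729 and 2161 UMIs, 718 and 2137 of them Pecam1, which B cells also express. Without cells that held at least 2 UMIs of the macrophage or T cell lists, the summed interferon genes had a log2 ratio of 1.29.

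Members differed among themselves. In 96 adult members with 3 or 4 gate genes, 70 with 5 or 6 and 86 with 7 or 8, each class against its own matched cells, the summed interferon genes had log2 ratios of 0.39, 0.81 and 1.36, and 21 of 92, 49 of 91 and 74 of 98 genes with at least 100 UMIs were at least 2-fold higher, against 0.43%, 1.01% and 2.62% of all genes with this minimum in the same comparisons. The classes drew on the same pool of comparison cells, and their median UMIs were 16990, 14600.5 and 12224.5, so the strongest class was the shallowest. Ifit2 had log2 ratios of 2.42, 4.59 and 6.01, Slfn5 of 1.78, 3.23 and 4.85, and Irf7 of 1.13, 2.20 and 3.35. Socs1 was at -0.23, 1.35 and 2.18. H2-T22 was at 0.38, 0.72 and 1.17 and Cd69 at 0.20, 0.36 and 0.95, while Klf2, a factor of quiescent lymphocytes, was at -0.15, -0.27 and -0.38.

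**Figure D5:**
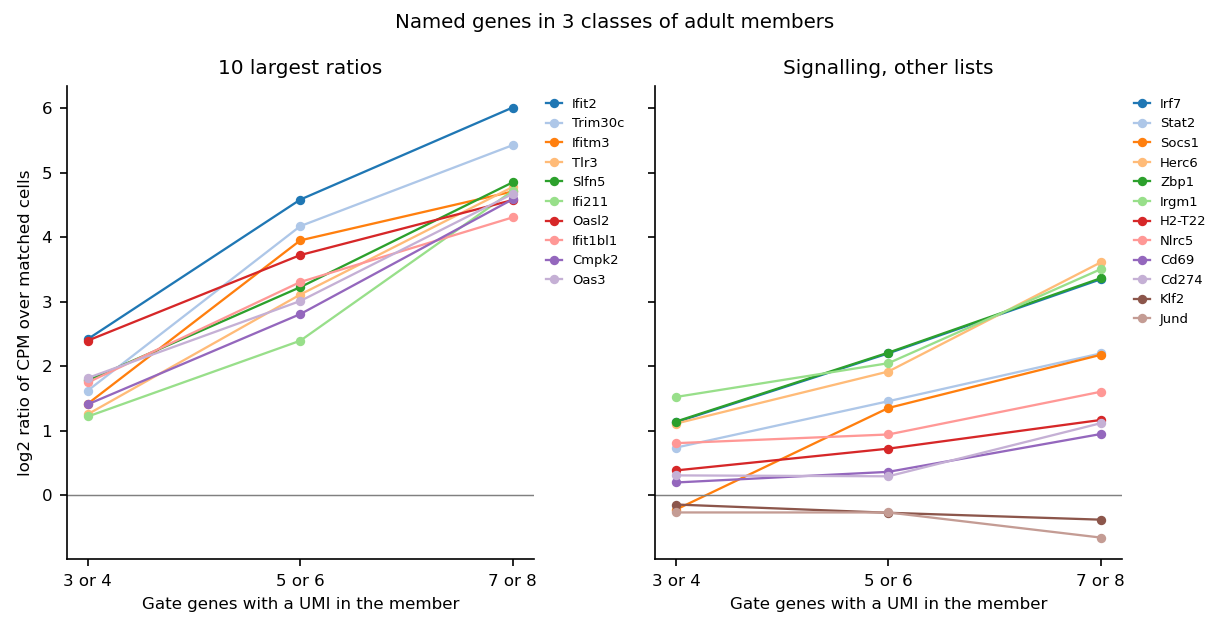
Log2 ratio of CPM over matched cells (vertical axis) for named genes in adult members with 3 or 4, 5 or 6 and 7 or 8 gate genes (horizontal axis, 96, 70 and 86 cells). Lines join the values of a gene, and those of Irf7 and Zbp1 lie on each other. The 10 largest ratios go from at most 2.42 in the first class to at least 4.31 in the last.

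Some of the genes at least 2-fold higher lay near each other. Of these 113 genes, which leave out the gate genes, 112 had a position, and 47 stood in 16 groups with gaps of at most 200 kb. The same count was not made over all genes compared. The group of 7 was Ifi206, Ifi214, Ifi213, Ifi209, Ifi208, Ifi207 and Ifi211 on chromosome 1 (chr1:173468485-173913046). Groups of 4 were Slfn5, Slfn9, Slfn8 and Slfn1 on chromosome 11 (chr11:82951349-83122670), Phf11a, Phf11b, Phf11c and Setdb2 on chromosome 14 (chr14:59276913-59440884), and Trim30b, Trim30c, Trim30a and Trim30d on chromosome 7 (chr7:104355382-104507849). Ifit2 and Ifit1bl1 stood together on chromosome 19 (chr19:34550694-34601956), beside the gate genes of that family. Such neighbours are often related copies, so they are not separate measurements. Of the genes named in these groups, Ifi207, Ifi211, Slfn9, Slfn1 and Trim30c reached the minimum only through their high member UMIs.

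The ISRE core was also frequent before these genes. Of the 113 genes, 85 were in the promoter table and 32 of them held a core (37.6%), against 235 of 6876 genes compared (3.42%). Of the 10 genes with the largest ratios 4 held a core, Slfn5, Ifi211, Ifit1bl1 and Oas3, and the windows of Ifit2, with both of its RefSeq starts, Trim30c, Ifitm3, Tlr3, Oasl2 and Cmpk2 held no match. Ifitm3 held 2 just after its start. The first Ifit2 start is shown as the gene with the largest ratio and no match of these letters in the window.
Ifit2, chr19:34550444-34550693, plus strand: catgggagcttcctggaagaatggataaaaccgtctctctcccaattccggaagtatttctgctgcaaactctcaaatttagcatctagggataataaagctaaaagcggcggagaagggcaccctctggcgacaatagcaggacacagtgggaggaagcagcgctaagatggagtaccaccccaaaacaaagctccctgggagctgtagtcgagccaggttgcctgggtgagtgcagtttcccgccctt

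The 16 neonatal members held 4368 to 41763 UMIs, with a median of 6928, and 3 to 6 gate genes. Their interferon-stimulated genes outside the gate summed to 17200 CPM (16670 to 17760), against 8379 CPM in 80 matched neonatal cells (log2 ratio 1.04, 0.98 to 1.09). Per cell they stood at 6548 CPM at the lowest, 22158 at the median and 43394 at the highest. A droplet of 24484 UMIs and 6 gate genes held 610 of their 649 macrophage UMIs. The macrophage genes stood at 2897 CPM in members with it and at 195.4 CPM without it, and the interferon-stimulated genes stood at 17030 CPM.

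Among Cd79a cells that were not members, the same genes stood at 9475 CPM in the adult and 8743 CPM in the neonatal library (log2 adult over neonatal 0.12, 0.11 to 0.12), and at 9122 and 8518 CPM in cells with none of the gate genes (0.10). Between the libraries, 110 barcodes held at least 500 UMIs in both. They took in 19 adult and 4 neonatal members, and no barcode was a Cd79a cell in 1 library and a member in the other. Leaving them out gave 6.53% adult and 0.595% neonatal members, and a log2 ratio of 0.94 for the summed interferon genes of adult members.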

How the data were processed

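The deposited tables hold raw UMI counts by gene and barcode, which the authors made against mm10 without filtering or normalizing them (Cell Ranger, 3.0.2 per the file headers). The 3 antibody rows held 3 and 2 UMIs and were not used. Members, gene lists and named genes were chosen with earlier results of these data known. Named genes were the gate genes, the 3 largest ratios of each of 25 lists, and the 10 largest in each direction found in at least 10% of the higher group. Of gene lists, Oas1b, Mx2 and Cxcl11 were not in the table. CPM was summed UMIs over totals without Cd79a and the gate, for genes with at least 100 UMIs. Shares have Clopper-Pearson, CPM exact Poisson and ratios conditional binomial 95% intervals. These totals were 5325674 UMIs in adult members and 18907784 in matched cells, so rare genes have wide intervals. Near-empty droplets were those of ranks 45000 to 90000. Thinning drew 2000 UMIs per cell. No doublets were called. Positions are from GENCODE M21. The software was Python 3.11.15 with scipy 1.17.1, numpy 2.4.6, Biopython 1.88, pandas 2.3.3 and matplotlib 3.10.9. Simulated data, with 200 of 8717 genes changed, drew Poisson counts for the summed adult members and the summed matched cells, without variation between cells. The sign was recovered for 100% of genes at each of 4 fold sizes, and intervals covered 95.5% of unchanged genes. Coverage near 95% follows from that draw, so it does not show how the intervals hold where single cells carry most UMIs. The 18 alternatives tried, and 3 added for the lists of opposite sign after seeing the data, are given at the end. Some genes of the lists are not reported here.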

Additional observations from a re-analysis of the deposited data

Results flagged for a closer look

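In 4 lists the summed genes went opposite ways in neonatal and adult members against their matched cells, with both intervals apart from 0, at least 100 neonatal UMIs and at least 1 of the ratios past 2-fold, which drew attention to them. These differences between the libraries were not tested. The log2 ratio of the macrophage and monocyte list was 2.72 in neonatal and -0.32 in adult members, with 610 of the 649 neonatal UMIs in 1 droplet, and without it the neonatal ratio was -1.17, the same sign as the adult one. The cell cycle list was at -2.09 in neonatal and 0.23 in adult members, the plasma cell and secretory list at -1.30 and 0.21, and the B1 list at -1.18 and 0.16. The adult plasma cell value fell to -0.09 without the member with the most UMIs of the list. Without the highest cell of each group it was 0.02 (-0.03 to 0.07) in adult and -0.26 in neonatal members. The adult B1 value was -0.08, with an interval that took in 0, without S100a6, its most abundant gene. Without this gene the neonatal B1 value was -0.57 (-0.86 to -0.29), below 2-fold. The cell cycle list kept its opposite signs without the highest cells (-2.03 and 0.17) and without Tubb5 (-2.70 and 0.31). Of the 16 neonatal members, however, 8 held 3 and 6 held 4 gate genes. In adult members with 3 or 4 gate genes the cell cycle ratio was -0.08, with an interval that took in 0, so the opposite sign was not seen in that class. Immediate-early and stress genes (0.17 in neonatal and -0.25 in adult members) and MHC class II genes (0.44 and -0.04) also had opposite signs with intervals apart from 0, but below 2-fold. The list of interferons and chemokines (-2.43 and 0.86) rested on 3 UMIs in neonatal members and 81 in their matched cells. Other lists of opposite sign had an interval that reached 0. The 16 neonatal members make each of these values depend on few cells. Outside the rule, 11 of 490 adult Cd79a droplets over the mitochondrial limit (2.25%, 1.13 to 3.98) also held 3 gate genes.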

How the results depend on the processing

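No paired analysis was possible because each age is 1 library, and for the same reason no replicate could be left out. Depth limits the members: the share of adult cells was 2.71% with the gate read at 2000 UMIs, 10.5% with 2 and 5.34% with 4 of 8 gate genes, 5.77% at a mitochondrial limit of 5% (9 of 156 cells), 5.01% without cells over 20000 UMIs and 4.97% without cells with macrophage or T cell transcripts. In the same order the neonatal share was 0.0963%, 1.69%, 0.385% and 3.33%, the last 2 of 60 cells, and it stayed within its interval for the other alternatives. The number of genes at least 2-fold higher was 183 with the gate read at 2000 UMIs, 179 from means over cells, 202 with a minimum of 20 UMIs and 55 at the mitochondrial limit of 5%, and from 107 to 159 otherwise. The genes at least 2-fold lower were the least settled, with 7 (2 of 8 gate genes), 24 (4 of 8), 91 (gate at 2000 UMIs), 108 (limit of 5%), 74 (without cells over 20000 UMIs), 69 (without macrophage or T cell transcripts), 30 (without barcodes of both libraries), 7 (comparison cells with no gate gene), 35 (unmatched), 52 (means over cells), 47 (minimum of 50 UMIs in matched cells) and 213 (minimum of 20 UMIs). Interferon-stimulated genes outside the gate at least 2-fold higher numbered from 58 to 78, save 2 of 20 at the limit of 5%. The log2 ratio of their sum was 0.66 and 0.93 for 2 and 4 gate genes, 1.46 at 2000 UMIs, 0.84 without Cxcl10, 0.35 at the limit of 5%, 1.33, 1.29 and 0.94 without deep cells, other transcripts and shared barcodes, 0.88 against cells with no gate gene, 1.18 from means over cells and 0.85 when centred. Of 18 named genes at least 2-fold higher that were recomputed, 285 of 286 ratios stayed at least 2-fold and none was below 0. At the limit of 5% no ratio could be had for Tlr3, with 0 UMIs in both groups, or for Nlrc5, which had 0 UMIs in members and 17 in matched cells, the opposite direction. Chosen after seeing the data, leaving out the neonatal member with the most macrophage UMIs turned the ratio of that list from 2.72 to -1.17, and to -0.87 without the highest matched cell too. The causes were not tested.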

Other observations

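Of the 113 genes at least 2-fold higher in adult members, 47 stood in none of the lists. Singled out after their values were seen, these included Mov10, an RNA helicase that restrains retroelements (log2 ratio 1.84, 88 against 87 UMIs), Setdb2, a histone methyltransferase in the Phf11 neighbourhood (1.29), Znfx1, a helicase that senses RNA (1.36), Mpeg1, which encodes the pore-forming protein perforin-2 (1.38), and Nampt, an enzyme of NAD synthesis (1.02). Pkib, an inhibitor of protein kinase A, stood at 1.39 with a UMI in 79.8% of members and 48.7% of matched cells, and Rfc3, a subunit of the clamp loader of DNA replication, at 1.31 with 51.2% and 19.0%.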
